A study of Arabidopsis thaliana with 4 samples.

Results

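The core circadian clock genes of Arabidopsis were followed in RNA-Seq libraries made from flowers and young fruits of wild-type plants and of the *stk* mutant. The set holds 10 loci of the 27206 loci measured. They were chosen by locus, for their known place in the clock, with no rule on their values here, and they are *LHY* (AT1G01060), *CCA1* (AT2G46830), *PRR9* (AT2G46790), *PRR7* (AT5G02810), *PRR5* (AT5G24470), *TOC1* (AT5G61380), *GI* (AT1G22770), *ELF3* (AT2G25930), *ELF4* (AT2G40080) and *LUX* (AT3G46640, listed as *PCL1* in the reference). Because transcripts of these genes rise and fall over the day, they allow the phase of the plants at harvest to be compared between and within the genotypes. The hour of collection is not given in the sources used here.

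All plants were of the Columbia ecotype and grew at 22 °C under short or long days, and the sources do not say which of the day lengths the RNA comes from. The mutant carries the *stk-2* allele, a mutation of the MADS-box gene *STK* caused by inserted bases within the gene. *STK* is known for its part in ovule and seed development. Each genotype is represented by 2 biological replicates, collected as inflorescences together with siliques up to 5 days after pollination, so that every library mixes flower, ovule, seed and fruit tissue. *STK* itself stood at 38.7 and 40.9 RPKM in wild type, against 7.91 and 7.96 RPKM in *stk*, where RPKM are reads scaled to the length of the exons and to a read total of the library.

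The library sizes recovered from the RPKM values were 16965995 and 21075042 reads in wild type and 30564185 and 33673020 reads in *stk*, so that the mutant libraries were the deeper ones. The paper gives their total as the reads that passed its quality filter, of which a part did not map. The share that mapped is given for the libraries together and not for each. The column headers carry lane field 7 for *stk* replicate 1 and lane field 1 for the other libraries, although the description speaks of a single lane. Marker genes of floral organs, carpels and ovules, tapetum, pollen and seed coat were all above 0, and the summed root markers stayed between 1.57 and 3.97 RPKM. In whole tissue, fewer cells of a type and less RNA per cell cannot be told apart.

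The plant clock is a set of transcription factors that repress each other in turn through the day. The MYB proteins CCA1 and LHY accumulate around dawn and repress genes that carry the evening element in their promoters, the pseudo-response regulators PRR9, PRR7 and PRR5 follow one after the other through the day and repress *CCA1* and *LHY*, and TOC1 does so in the evening. GI, a large plant-specific protein, stabilises the F-box protein that degrades TOC1, and ELF3, ELF4 and LUX form the evening complex, a night-time repressor. In photosynthetic organs the clock times growth, flowering and much of metabolism.

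The DNA to which CCA1 and LHY bind is shown first, because it links the morning genes to the evening genes. The evening element was searched as AAAATATCT and the CCA1-binding site as AAAAATCT, on both strands, from 1000 bases before to 50 bases after the start of each gene in the annotation. The motifs differ in their letters, so that a place matching one does not match the other. The windows below are read from the TAIR10 chromosomes and are written 5′ to 3′ on the strand of the motif, with the motif in capitals and the distance from the start of the gene.
*TOC1*, 252 bases upstream, chr5:24674804-24674828, minus strand: tcttggagAAAATATCTcatgatat
*GI*, 684 bases upstream, chr1:8061152-8061176, plus strand: ctcccctcAAAATATCTgtggacat
*ELF4*, 577 bases upstream, chr2:16735473-16735497, minus strand: actacaaaAAAATATCTtgcggatt
*LUX*, 81 bases upstream, chr3:17182981-17183005, plus strand: gaagatctAAAATATCTagctaact
*PRR5*, 389 bases upstream, chr5:8359246-8359270, plus strand: aaacccaaAAAATATCTaatgctag
*PRR9*, 16 bases upstream, chr2:19232625-19232649, minus strand: caaccacgAAAATATCTtctcagag
*LHY*, CCA1-binding site, 429 bases upstream, chr1:38285-38308, plus strand: gtctgtatAAAAATCTtcatcttt
*PRR9*, CCA1-binding site, 358 bases upstream, chr2:19232283-19232306, plus strand: tgaaaaaaAAAAATCTacctttta

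The evening element was present upstream of 6 of the 10 clock genes, compared with 7.74% of 26716 loci. *GI* held 3 copies, at 902, 870 and 684 bases upstream, and *PRR5* held 3, of which 1 lay 35 bases downstream of the start. *LHY*, *CCA1*, *PRR7* and *ELF3* had no exact match. The CCA1-binding site was found in 2 of 10, compared with 22.7% of loci. The G-box CACGTG, bound by bZIP and bHLH factors, was present in 5 of 10 and in 16.7% of loci, and the LUX-binding site GATTCG or GATACG in 7 of 10 and in 42.0% of loci. A match describes the letters in this window and not a bound site.

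**Figure D1:**
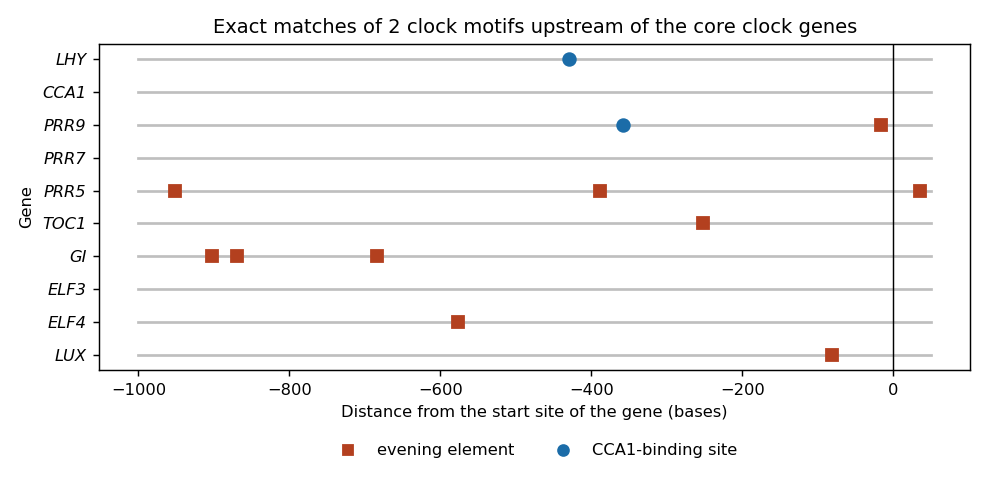
Positions of exact matches to the evening element (squares) and the CCA1-binding site (circles) along each clock gene, drawn as distance in bases from the start of the gene, with the searched window as a grey line. *GI* and *PRR5* hold 3 evening elements each, and *CCA1*, *PRR7* and *ELF3* hold no match to either motif.

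The dawn genes *LHY* and *CCA1* were the most abundant, whereas the morning gene *PRR9* lay below the day gene *PRR7*. *LHY* (chromosome 1, 33379 to 37871) stood at 55.6 and 48.3 RPKM in wild type, against 43.5 and 43.3 RPKM in *stk*, in the order of the replicates, which is kept in what follows. Its partner *CCA1* (chromosome 2, 19245672 to 19248914) had 41.5 and 41.7 RPKM in wild type, against 38.5 and 39.5 RPKM in *stk*. For both MYB genes each *stk* library lay below each wild-type library, by little in *CCA1*, and wild-type replicate 1 was the highest library for *LHY*. *PRR9* (chromosome 2, 19232649 to 19235087), the earliest of the pseudo-response regulators, had 18.1 and 19.3 RPKM in wild type, against 17.4 and 16.0 RPKM in *stk*, again without overlap. Libraries that did not overlap in this direction were found in 26.8% of all 19044 loci with a mean of at least 1 RPKM.

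Of the regulators that follow *PRR9*, *PRR7* was far above *PRR5*. *PRR7* (chromosome 5, 637897 to 641977) had 24.3 and 23.6 RPKM in wild type, against 23.0 and 22.4 RPKM in *stk*, close to each other in the 4 libraries. *PRR5* (chromosome 5, 8355951 to 8358873) had 3.0 and 2.82 RPKM in wild type, against 1.94 and 1.63 RPKM in *stk*. The *PRR5* values rest on 115 and 134 reads in wild type and on 134 and 124 reads in *stk*, from libraries of very different depth.

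The evening genes stood below *PRR7*, and all of them but *ELF4* stood above *PRR5*. *TOC1* (chromosome 5, 24675064 to 24678550), which represses the morning genes, had 9.54 and 9.57 RPKM in wild type, against 8.27 and 8.63 RPKM in *stk*. *GI* (chromosome 1, 8061844 to 8067716) had 11.7 and 12.2 RPKM in wild type, against 9.35 and 10.6 RPKM in *stk*, with *stk* replicate 1 the lowest. In both genes the genotypes did not overlap.

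Within the evening complex, the scaffold protein gene *ELF3* (chromosome 2, 11059035 to 11063324) had 8.16 and 7.68 RPKM in wild type, against 6.72 and 7.13 RPKM in *stk*. The MYB-like DNA-binding subunit gene *LUX* (chromosome 3, 17183070 to 17185218) had 7.28 and 6.36 RPKM in wild type, against 6.46 and 6.05 RPKM in *stk*, and it was the only member besides *ELF4* that was not lower in each *stk* library. *ELF3* shares 24 bases with *ALPHA-VPE* on the opposite strand, which was at 0.344 to 0.559 RPKM. No use of the strand is stated for the counting. *ELF4* (chromosome 2, 16734294 to 16734912), a short gene of 619 bases whose protein joins the other subunits, was barely detected, with 0.286 and 0.767 RPKM in wild type, against 1.22 and 0.816 RPKM in *stk*. These are 3, 10, 23 and 17 reads, and *ELF4* was the only member with both *stk* libraries above the wild-type ones.

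**Figure D2:**
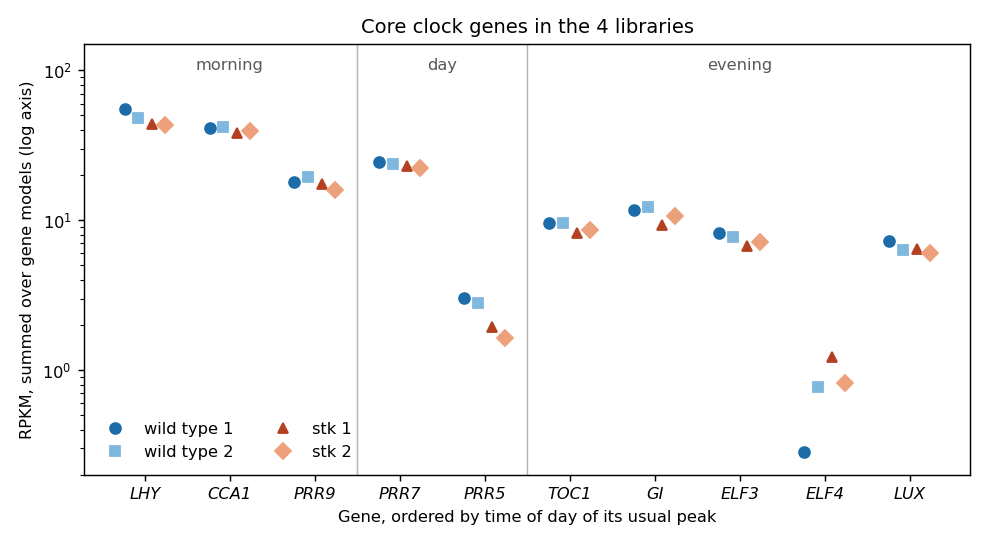
RPKM summed over gene models (log axis) of the 10 clock genes, ordered by the time of day of their usual peak, with 1 point for each of the 2 wild-type and 2 *stk* libraries. *LHY* and *CCA1* lie between 38.5 and 55.6 RPKM in the 4 libraries, and *ELF4* between 0.286 and 1.22 RPKM.

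The order of the levels per length of exon was the same in the 4 libraries. From the top it was *LHY*, *CCA1*, *PRR7*, *PRR9*, *GI*, *TOC1*, *ELF3*, *LUX*, *PRR5* and *ELF4*, with means over the libraries of 47.7 RPKM for *LHY*, 40.3 RPKM for *CCA1*, 23.3 RPKM for *PRR7*, 17.7 RPKM for *PRR9* and 11 RPKM for *GI*. Below these, the means were 9.0 RPKM for *TOC1*, 7.42 RPKM for *ELF3*, 6.54 RPKM for *LUX*, 2.35 RPKM for *PRR5* and 0.771 RPKM for *ELF4*. Neighbours whose libraries overlapped were *GI* with *TOC1* and *ELF3* with *LUX*. The ratio of the highest to the lowest library was 1.08 for *CCA1* and 1.09 for *PRR7*, between 1.16 and 1.30 for *TOC1*, *LUX*, *PRR9*, *ELF3*, *LHY* and *GI*, 1.84 for *PRR5* and 4.26 for *ELF4*. The rank was thus the same in the mutant, with the dawn genes on top and the day gene *PRR5* and the evening gene *ELF4* at the bottom. The top and bottom genes lie so far apart that their places could hardly change, so the rank does not measure phase.

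The comparison of *stk* with wild type asks whether the clock genes differed between the genotypes as harvested. With limma on log2(RPKM + 1), over the 19044 loci with a mean of at least 1 RPKM, no clock gene differed between the genotypes at an adjusted p under 0.05. *ELF4* did not reach that mean, so 9 members were tested. No locus of all those tested passed either (0.0%), whereas 1749 loci (9.18%) had an unadjusted p under 0.05, among them 1 member, *PRR5*, and 672 of them (3.53%) were lower in *stk*, as *PRR5* was. With an unadjusted p of at most 0.05 in limma and means 2-fold apart, 590 loci (3.1%) were higher and 62 (0.326%) lower in *stk*, with 0 members, whereas the same thresholds with Baggerley's test gave 90 higher and 14 lower. Baggerley's test, the one the study names, passed 67 loci after adjustment and 0 members. Here it took RPKM in place of reads, which makes its smallest variance wide for weakly expressed genes. At the level of *PRR5* (unadjusted p = 0.425, Baggerley's test) it could hardly call a difference of this size. With 2 libraries against 2, an exact permutation test of a single gene cannot go below p = 0.333. The p-values rest on the spread between these libraries and do not reach beyond them. In limma the spread of each gene is drawn towards that of all loci tested. The standard errors of the members, 0.13 to 0.14, lie near the lowest of all loci, 0.13.

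The *PRR5* mean was 38.6% lower in *stk*. On the log2 scale the difference was -0.49, with a standard error of 0.14 and an adjusted p of 0.513 (limma, Benjamini-Hochberg). Its summed reads, scaled to library size, gave a ratio of 0.614 with a 95% counting interval of 0.514 to 0.733, which covers counting error only. *LHY* was 16.5% lower (log2 fold change -0.25, standard error 0.14, adjusted p = 0.636) and *GI* 16.4% lower (-0.24, standard error 0.14, adjusted p = 0.643). These were the members with the largest differences on the log2 scale among those tested, and all of them were under a factor of 2.

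The other 6 members tested lay nearer to 0. The log2 fold changes were -0.17 for *ELF3*, -0.16 for *TOC1*, -0.16 for *PRR9*, -0.11 for *LUX*, -0.09 for *CCA1* and -0.08 for *PRR7*, with standard errors of 0.13 to 0.14 and adjusted p between 0.724 and 0.873. The means were 12.6%, 11.5%, 10.9%, 8.32%, 6.36% and 5.41% lower in *stk* in the same order. For *ELF4*, a fit without the filter on low values gave 0.41 (standard error 0.21, adjusted p = 0.607), and 13 wild-type reads against 40 *stk* reads gave a scaled ratio of 1.82 with a counting interval of 0.955 to 3.71. A difference in *ELF4* was thus not detectable at this depth.

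The differences of the tested members had the same sign, on a scale where most loci did as well. The log2 fold change was below 0 in 9 of 9 members and in 59.8% of all loci tested, with a median of -0.16 for the members and -0.05 for all loci. With the trend of the log2 values on exon length removed from each library, *CCA1*, *PRR7* and *LUX* turned to 0.02, 0.05 and 0.03. Both *stk* libraries lay below both wild-type libraries in 8 of 9 members and in 26.8% of loci, and this count went to 4 of 9 members under median-of-ratios scaling (21.9% of loci), under quantile normalization (28.5% of loci) and with the exon length trend removed (23.8% of loci). None of the 9 lay above both, as 16.3% of loci did.

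The values without *stk* replicate 1, whose lane field differs, left the 3 libraries of lane field 1. They gave log2 fold changes of -0.57 for *PRR5*, -0.25 for *LHY*, -0.21 for *PRR9*, -0.16 for *GI*, -0.15 for *LUX*, -0.13 for *TOC1*, -0.13 for *ELF3*, -0.09 for *PRR7* and -0.07 for *CCA1*. Every tested member kept its sign there, and 0 members passed, although 324 loci of the whole table did with the lone *stk* library, whose spread was taken to be that of wild type. Green tissue markers lay higher in the mutant: *RBCS1A*, *CAB1* and *RCA* summed to 15937 and 16433 RPKM in wild type, against 19122 and 20148 RPKM in *stk*. Of these, 3 of 3 were higher in both *stk* libraries, as 16.3% of loci were, without passing the test. Of the seed coat markers *BAN* and *TT10* both were higher in *stk*, summing to 37.5 and 40.1 RPKM in wild type, against 78.4 and 91.2 RPKM in *stk*. Other markers were lower in both *stk* libraries, as most clock genes and 26.8% of loci were. Of the 4 carpel and ovule markers these were *BEL1* and *STK*, which is the mutated gene itself and says nothing about tissue. So were *PI* of the 4 floral organ markers and *ATA7* of the 2 tapetum markers. The same held for *VGD1* of the 2 pollen markers and *PYK10* of the 2 root markers. *SEP3*, a floral organ marker, was higher in both, with 140 and 126 RPKM in wild type, against 274 and 193 RPKM in *stk*. None of the markers with a mean of at least 1 RPKM passed the adjusted test, and the part of these tissues in the clock gene values was not tested. Whether the marker differences reflect tissue or the hour of collection was not tested either.

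**Figure D3:**
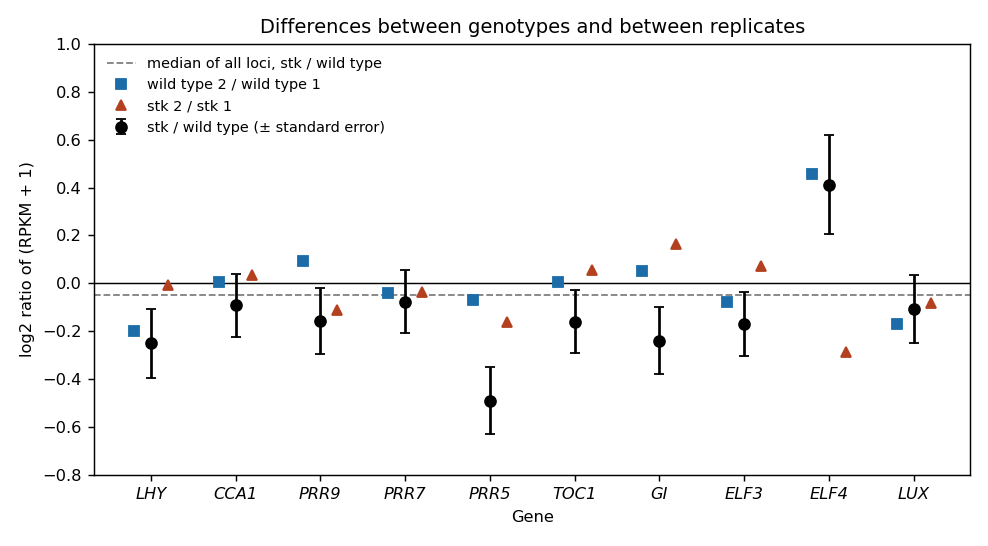
log2 ratios of (RPKM + 1) for each clock gene: *stk* over wild type with its standard error from limma (black, 2 libraries per genotype), and replicate 2 over replicate 1 in wild type (squares) and in *stk* (triangles). The dashed line is the median over all loci at -0.05, and *PRR5* lies lowest at -0.49. *ELF4* is taken from the fit without a filter on low values.

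Within each genotype, the ratio of the replicates shows how far 2 biological samples differed in the clock genes. Whether they were collected at the same hour is not stated. The median absolute log2 ratio of the replicates was 0.07 over the tested members in wild type and 0.07 in *stk*, against 0.18 and 0.16 over all loci tested. The wider clock lists, described below, were less even. Their medians were 0.11 in wild type and 0.17 in *stk* for the partners, and 0.16 and 0.18 for the outputs. For the evening outputs alone they were 0.27 and 0.75. In *stk* the member value was 0.12 under median-of-ratios scaling and 0.21 under quantile normalization, and in wild type 0.09 under both. The values over all loci were taken without such scaling. None of the 9 members differed 2-fold or more between replicates in either genotype, the fold named in the analysis plan. Such a ratio was seen in 3.04% of loci in wild type and 4.98% in *stk*. A cut of 1.25-fold, not in the plan, lies above every ratio of the tested members, so their count of 0 follows from the cut. It was reached by 28.4% of loci in wild type and 29.3% in *stk*. Of 29 partners, 6 reached it in each genotype, and of 10 outputs 1 in wild type and 3 in *stk*.

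The largest replicate ratios belonged to *ELF4*, at 2.68 in wild type (counting interval 0.691 to 15.2) and 0.671 in *stk* (0.336 to 1.31), both of which include 1. For 2 ratios the counting interval did not include 1. *LHY* in wild-type replicate 2 was 0.869 of replicate 1 (interval 0.815 to 0.909), and *GI* in *stk* replicate 2 was 1.13 times replicate 1 (1.05 to 1.23). *CCA1*, which works together with *LHY*, had ratios of 1.0 in wild type (0.937 to 1.07) and 1.03 in *stk* (0.975 to 1.08). *TOC1* had ratios of 1.0 (0.883 to 1.14) and 1.04 (0.941 to 1.16). These intervals cover counting error and not the spread between biological samples. On the log2 scale the ratio was -0.20 for *LHY* in wild type and 0.17 for *GI* in *stk*. The median absolute log2 ratio over all loci tested was 0.18 in wild type and 0.16 in *stk*.

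Ratios of genes with opposite phase cancel the scaling of a library and were compared next. *CCA1* was 4.35 and 4.36 times *TOC1* in wild type and 4.65 and 4.57 times *TOC1* in *stk*, a range of 0.30 over the 4 libraries. *CCA1* was 3.54 and 3.43 times *GI* in wild type and 4.11 and 3.72 times in *stk*. Both of these ratios were higher in each *stk* library than in each wild-type library. How far such ratios range for pairs of genes outside the clock was not examined. *LHY* over *TOC1* ranged more widely, at 5.83 and 5.05 in wild type, against 5.27 and 5.01 in *stk*, and the genotypes overlapped. *LHY* over *CCA1* was 1.34 and 1.16 in wild type, against 1.13 and 1.10 in *stk*, with wild-type replicate 1 apart from the rest.

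Summed by usual phase, the morning genes *LHY*, *CCA1* and *PRR9* had 115 and 109 RPKM in wild type, against 99.3 and 98.7 RPKM in *stk*. The day genes *PRR7* and *PRR5* had 27.3 and 26.4 RPKM in wild type, against 24.9 and 24 RPKM in *stk*. The evening genes had 37.0 and 36.5 RPKM in wild type, against 32.0 and 33.2 RPKM in *stk*. Each sum was lower in both *stk* libraries, the morning and the evening sums alike. The mean log2(RPKM + 1) of the morning genes minus that of the evening genes was 2.43 and 2.34 in wild type, against 2.28 and 2.26 in *stk*, a difference of -0.11 between the genotypes. That difference rested on *ELF4*: without it the values were 1.83 and 1.85 in wild type, against 1.88 and 1.80 in *stk*, with a difference of 0.0021. The measure describes the libraries and was not tested.

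Single gene models gave a less even picture than the sums for *PRR9*. Model AT2G46790.1 had 16.0 and 12.9 RPKM in wild type, against 7.14 and 7.45 RPKM in *stk*, whereas model AT2G46790.2 had 2.01 and 6.41 RPKM in wild type, against 10.2 and 8.52 RPKM in *stk*. The first model made up 88.9% and 66.9% of the gene in wild type and 41.2% and 46.6% in *stk*. The log2 fold changes were -0.89 for the first model (standard error 0.17, adjusted p = 0.579 from limma over all gene models) and 1.13 for the second (standard error 0.48, adjusted p = 0.697), so neither passed. The models differ by 8 bases at the end of exon 2 and by 11 bases at the 3′ end, and the assignment of reads to one or the other rests on these few bases. The exon 2 boundary is shown because it is what separates the models, with the 8 bases that only the second model counts as exon in capitals.
*PRR9*, end of exon 2, chr2:19233312-19233341, plus strand: tcctgtcataaGTACGATGgtgatccccta

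Both models use a GT as the donor, 8 bases apart, and the splicing of *PRR9* is known to respond to the methyltransferase PRMT5 and the splicing factor SKIP. *PRMT5* had 21.3 and 21.7 RPKM in wild type, against 17.7 and 17.0 RPKM in *stk* (log2 fold change -0.29, adjusted p = 0.576 from limma), and *SKIP* had 60.3 and 55.5 RPKM in wild type, against 57.0 and 52.0 RPKM in *stk* (-0.09). Neither passed the test, and the *SKIP* libraries overlapped between the genotypes. A link of either gene to the shares of the *PRR9* models was not tested. For *CCA1*, the model AT2G46830.2, which starts inside the gene, was rare at 4.22% and 5.80% in wild type, against 2.76% and 1.92% in *stk*. *LHY* was carried mostly by AT1G01060.4, with 69.5% and 91.3% in wild type, against 75.4% and 79.6% in *stk*, and wild-type replicate 1 stood out for AT1G01060.5 with 30.5% against 3.93% in replicate 2. The models of *LUX* had no steady share, as AT3G46640.1 took 27.7% and 51.0% in wild type, against 49.0% and 65.3% in *stk*. For *LHY* and *LUX*, the shares of the main models thus overlapped between the genotypes.

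**Figure D4:**
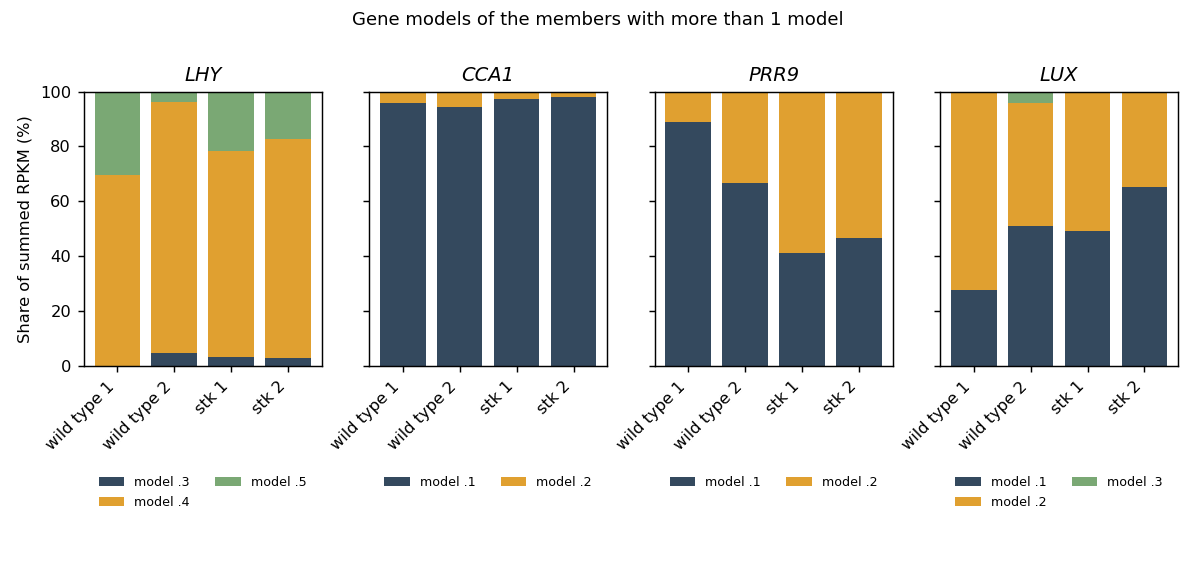
Share of the summed RPKM (%, bars stacked to 100) taken by each gene model of *LHY*, *CCA1*, *PRR9* and *LUX* in each of the 4 libraries, with models at 0 left out. The first *PRR9* model takes 88.9% and 66.9% in wild type, against 41.2% and 46.6% in *stk*, and *CCA1* stays at its first model in every library.

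A wider list of 32 clock partners was followed in the same way, and 29 of them were tested. Of these, 0 passed at an adjusted p under 0.05 and 0 had an unadjusted p under 0.05 in limma, and Baggerley's test passed 0. An unadjusted p under 0.05 was found in 9.18% of all loci. The log2 fold changes of the partners were below 0 in 20 and above 0 in 9, with a median of -0.03, beside 59.8% of all loci below 0 and a median of -0.05. Without overlap of the libraries, 6 partners were lower in *stk* (26.8% of loci) and 2 higher (16.3% of loci). The largest were those of *PRMT5*, of *LKP2*, an F-box relative of the gene that controls TOC1 stability (-0.24), of *RVE8*, a dawn MYB activator of evening genes (-0.24), of *TIC*, a clock regulator (-0.18), and of AT1G01520, a MYB gene related to *RVE8* (0.16). The 12 dawn MYB and *LNK* genes had median levels of 21.0 and 20.5 RPKM in wild type, against 21.0 and 19.0 RPKM in *stk*. The 4 afternoon and evening genes *PRR3*, *FKF1*, *BOA* and *JMJD5* had medians of 1.64 and 1.32 RPKM in wild type, against 1.36 and 1.01 RPKM in *stk*. By these medians the dawn partners stood above the evening partners in each library, although the dawn gene AT1G01520 (2.20 to 2.89 RPKM) lay below the evening gene *BOA* (3.43 to 7.07 RPKM).

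Among 12 clock output genes, 10 were tested and 0 passed, with 0 at an unadjusted p under 0.05 in limma and 0 by Baggerley's test. The median log2 fold change was 0.13, with 6 above 0 and 4 below, beside a median of -0.05 and 59.8% below 0 over all loci, of which 9.18% had an unadjusted p under 0.05. Of the 10, 5 were higher in *stk* without overlap of the libraries (16.3% of loci) and 1 was lower (26.8% of loci). The evening outputs had medians of 107 and 96.7 RPKM in wild type, against 132 and 78.1 RPKM in *stk*, and the morning outputs had medians of 12.3 to 16.0 RPKM. Mean levels of single genes ran from 0.607 to 453 RPKM among the evening outputs and from 5.43 to 285 RPKM among the morning outputs. These medians therefore depend on which genes were listed and do not measure phase. The glycine-rich RNA-binding protein gene *GRP8*, an evening output, had 107 and 96.7 RPKM in wild type, against 220 and 120 RPKM in *stk* (log2 fold change 0.67, standard error 0.29, adjusted p = 0.567). Its value in *stk* replicate 1 was far above the others, and without that library the log2 fold change was 0.23. Its relative *GRP7* had 133 and 108 RPKM in wild type, against 132 and 78.1 RPKM in *stk* (-0.23). The DOF factor gene *CDF1*, a morning output, had 8.35 and 8.21 RPKM in wild type, against 12.8 and 9.06 RPKM in *stk* (0.35), and the growth-promoting bHLH genes *PIF4* and *PIF5* had log2 fold changes of 0.29 and 0.20.

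**Figure D5:**
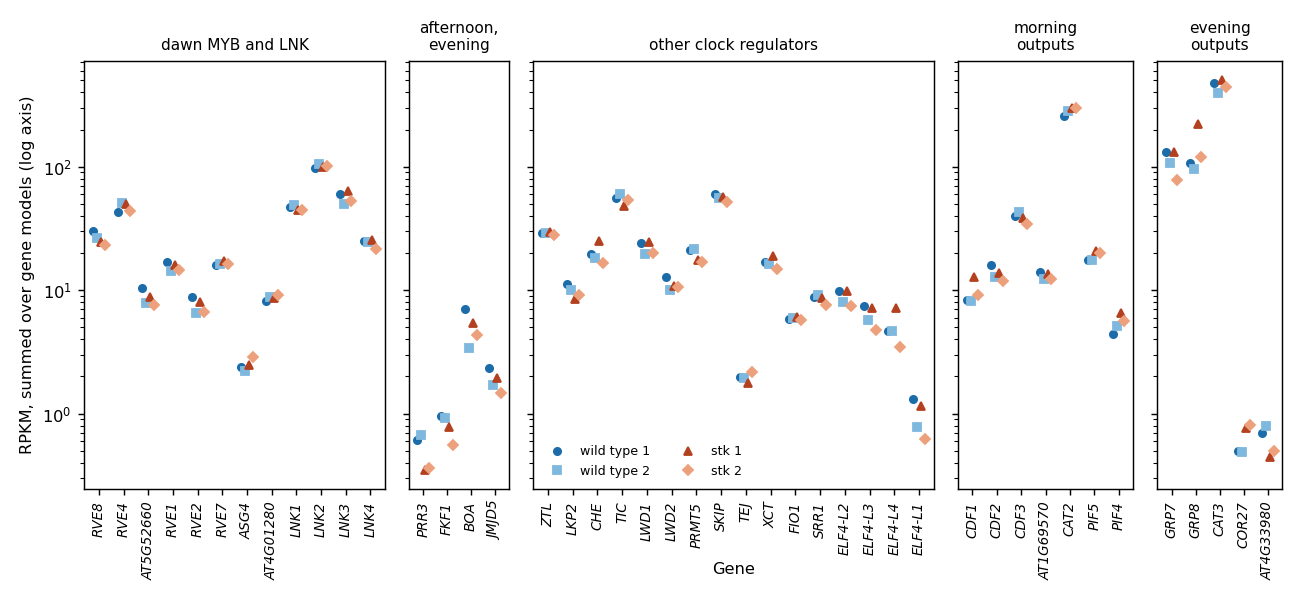
RPKM summed over gene models (log axis) of 32 clock partner genes and 12 clock output genes, in panels by role, with 1 point for each of the 2 wild-type and 2 *stk* libraries. The dawn genes span 2.20 to 105 RPKM, *PRR3* and *FKF1* stay below 1 RPKM, and *GRP8* is at 220 RPKM in *stk* replicate 1.

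The loci whose centred log2 values over the 4 libraries were nearest to *CCA1* by Euclidean distance, among 14182 loci with a mean of at least 5 RPKM, were *TAT7*, AT4G02030, AT4G10730, *PAO2* and *NodGS*, at distances of 0.012 to 0.016. For *TOC1* they were AT1G12450, *ABCB27*, *BIR1*, AT5G65685 and AT1G69060, at 0.017 to 0.021. As many as 833 loci lay within 0.1 of *CCA1* and 740 within 0.1 of *TOC1*, so many loci share this likeness over 4 libraries. The core clock genes themselves were left out of this ranking, so it does not say how near they lay to each other.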

How the data were processed

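Total RNA of 2 wild-type and 2 *stk* samples was sequenced as single reads of 50 bp. According to their methods, the authors mapped reads with at most 2 mismatches to TAIR10 in CLC Genomics Workbench 4.7.1, shared reads with up to 10 positions among similar loci in proportion to unique reads, and deposited RPKM values for 35182 gene models. Values of close paralogs and overlapping genes are therefore less certain. The deposited tables of enriched GO terms hold the authors' own comparisons and were not used.

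RPKM values were summed per locus (5804 loci have more than 1 model) and compared with limma 3.58.1 in R 4.3.3 as log2(RPKM + 1), for loci with a mean of at least 1 RPKM, with Benjamini-Hochberg adjustment over all loci. On this scale fold changes of weakly expressed genes are understated. A second criterion, with the thresholds of the study but limma in place of its Baggerley's test, was an unadjusted p of at most 0.05 with means at least 2-fold apart. Baggerley's test was run on RPKM proportions, with summed RPKM in place of read totals, so it has little power for weakly expressed genes. Tables were handled in Python 3.11.15 (pandas 2.3.3, numpy 2.4.6), tests other than limma in scipy 1.17.1, and figures drawn in matplotlib 3.10.9. The limma fit and Baggerley's test were tried on simulated data.

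Whole reads were recovered from the RPKM spacing, with 98.2% to 98.5% of low values whole within 0.01. Reads of *LUX* leave out its rarest model, whose length stayed undetermined. Sequences and exon lengths come from the RefSeq TAIR10.1 assembly, whose nuclear chromosomes are those of TAIR10. Its gene models have the same ends as the deposited ones in 26.2% of cases.

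All members are named in the text, as are *STK*, the 5 partners and 5 outputs with the largest absolute log2 fold change, and the 5 loci nearest to *CCA1* and to *TOC1*; *SKIP*, *BOA*, *JMJD5*, *PRR3*, *FKF1*, *COR27*, *ELF4-L1*, AT4G33980 and some markers were added after their values were seen. The members and lists were chosen with earlier results of these data known. Alternatives changed the pseudocount, filter, scaling, variance model, unit, test, block and libraries. A crossed block, the overlap counts under other scalings, and the phase measure without *ELF4* or the length trend were chosen after seeing the data. The 1.25-fold cut between replicates was not in the analysis plan.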

Additional observations from a re-analysis of the deposited data

How the results depend on the processing

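In 15 alternatives the number of members and of clock partners with an adjusted p under 0.05 stayed at 0. The log2 fold change of *PRR5* ranged from -0.68 to -0.41, that of *LHY* from -0.35 to -0.13 and that of *GI* from -0.32 to -0.08. Removing the exon length trend turned *CCA1* to 0.017, *PRR7* to 0.054 and *LUX* to 0.029, none past the threshold (adjusted p between 0.855 and 0.963, limma), and the cause was not tested. The 8 members without overlap became 4 under median-of-ratios scaling, 4 under quantile normalization and 4 with the exon length trend removed. Among outputs the count of calls was 0 to 1 with a library left out, the 1 being *GRP8* without *stk* replicate 2 (log2 fold change 1.11).

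The *stk* minus wild-type difference of the morning minus evening measure, -0.11, became -0.21 with a pseudocount of 0.1, -0.29 with the most abundant models, 0.028 with *LHY* and *CCA1* against *TOC1* and *GI*, and 0.0021 without *ELF4*. Without *ELF4*, it was -0.024 under quantile normalization and -0.029 with the length trend removed. With a library left out it ranged from -0.16 to -0.07.

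Over all loci, 0 calls by adjusted p became 5 under quantile normalization, 1 with limma's trend, 4 with the length trend removed, 2 with single gene models, 67 with Baggerley's test and 0 to 1570 with a library left out (324 without *stk* replicate 1 and 1570 without *stk* replicate 2). By an unadjusted p of at most 0.05 and means 2-fold apart, the 590 higher became 90 with Baggerley's test and 204 to 1232 with a library left out. The 62 lower became 135 without a filter, 29 where each library had to reach 1 RPKM, 272 with single models, 14 with Baggerley's test and 88 to 176 with a library left out.

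With the replicate number as a block, 0 loci passed, and *PRR5* had an adjusted p of 0.45 (limma). Deviations of same-numbered libraries correlated at r = -0.13 over 19044 loci, so the numbers show no pairing. The block with crossed numbers, added after seeing the data, called 921 loci and 0 members. *ELF4*, at 3 to 23 reads, is limited by depth.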

Other observations

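Some clock genes lay under the mean of 1 RPKM and entered no test. *PRR3*, the pseudo-response regulator that stabilises TOC1, had 0.608 and 0.667 RPKM in wild type, against 0.352 and 0.363 RPKM in *stk*. *FKF1*, a blue-light F-box gene of the afternoon, had 0.948 and 0.921 RPKM in wild type, against 0.774 and 0.562 RPKM in *stk*. Both were lower in each *stk* library, as 26.8% of the tested loci were, and were named after their values were seen. *ELF4-L1*, a relative of *ELF4*, had 1.32 and 0.781 RPKM in wild type, against 1.15 and 0.628 RPKM in *stk*, with overlap. The cold-regulated evening genes *COR27* and AT4G33980 went apart, with 0.498 and 0.489 RPKM against 0.766 and 0.810 RPKM for *COR27* and 0.693 and 0.791 RPKM against 0.449 and 0.495 RPKM for AT4G33980.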
